A study of Mus musculus with 9 samples.

Results

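The genes described here are the receptor complex that senses bacterial endotoxin, lipopolysaccharide (LPS), together with its adaptors: Lbp, Cd14, Tlr4, Ly96, Tlr2, Tirap, Myd88, Ticam1, Ticam2 and Irak3. Their rows were found by gene name, and each name matched 1 row, so they are 10 of the 34310 genes in the deposited table. The study sequenced polyadenylated RNA from the kidneys of 9 mice, of which 3 had saline, 3 had LPS and 3 had both LPS and thymosin β4 (LPS+Tβ4), a peptide that sequesters actin monomers. Its title places it in sepsis-associated acute kidney injury and MAPK signalling. The labels give no strain, sex, age, dose, route or time for any group, so the LPS exposure is known only by name. The LPS+Tβ4 mice had LPS as well, so they were compared with the LPS mice for the added peptide and with the saline mice for both agents together. Library totals were 53 to 62 M counts.

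In the textbook pathway, LPS-binding protein (Lbp) extracts LPS monomers from bacterial membranes and hands them to CD14, a receptor anchored on the cell surface or shed into fluid. CD14 passes LPS to the complex of TLR4 with its small secreted partner MD-2, which the gene Ly96 encodes. At the plasma membrane the receptor recruits TIRAP and MYD88, which signal to NF-kB and the MAP kinases. From endosomes it recruits TICAM2 (TRAM) and TICAM1 (TRIF), which signal to IRF3 and type I interferon. IRAK3 (IRAK-M) is a brake on the MYD88 arm, and TLR2 is the related receptor for bacterial lipoproteins that shares CD14, TIRAP and MYD88. In kidney, TLR4 is known on tubular epithelium as well as on resident and infiltrating leukocytes.

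LPS was accompanied by higher transcripts of the carrier, the co-receptor, both receptors, the MYD88 arm and the IRAK3 brake. The changes of Ly96 and Ticam1 did not pass the threshold. Of the 9 members that passed the filter of a mean of 0.5 FPKM (fragments per kilobase of transcript per M), 7 rose and 0 fell in LPS against saline in edgeR at an adjusted p of 0.05. Among all 15015 genes tested, 43.1% passed, 20.9% higher and 22.2% lower. The median log2 change of the 9 was 2.20, against 0.02 over all genes tested. The members were chosen with earlier results of these data known, so this contrast is a description only. In the order of size, Cd14 rose 124-fold, Tlr2 18.5-fold, Irak3 15.2-fold, Lbp 6.4-fold, Tlr4 4.58-fold, Myd88 4.26-fold and Tirap 2.56-fold. When LPS+Tβ4 was compared with LPS, 0 of the 9 passed, where 6.83% of all genes did, 4.5% higher and 2.33% lower. At an unadjusted p below 0.05, 4 members were lower in that comparison (Cd14, Myd88, Tirap and Irak3) and 0 higher, where 11.5% of all genes were lower and 13.5% higher. DESeq2 called 2 members lower (Cd14 and Tirap), where it called 7.14% of all genes lower and 9.12% higher. Limma on log2(FPKM + 1) called 0 members, against 1.67% of all genes lower and 5.05% higher.

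**Figure D1:**
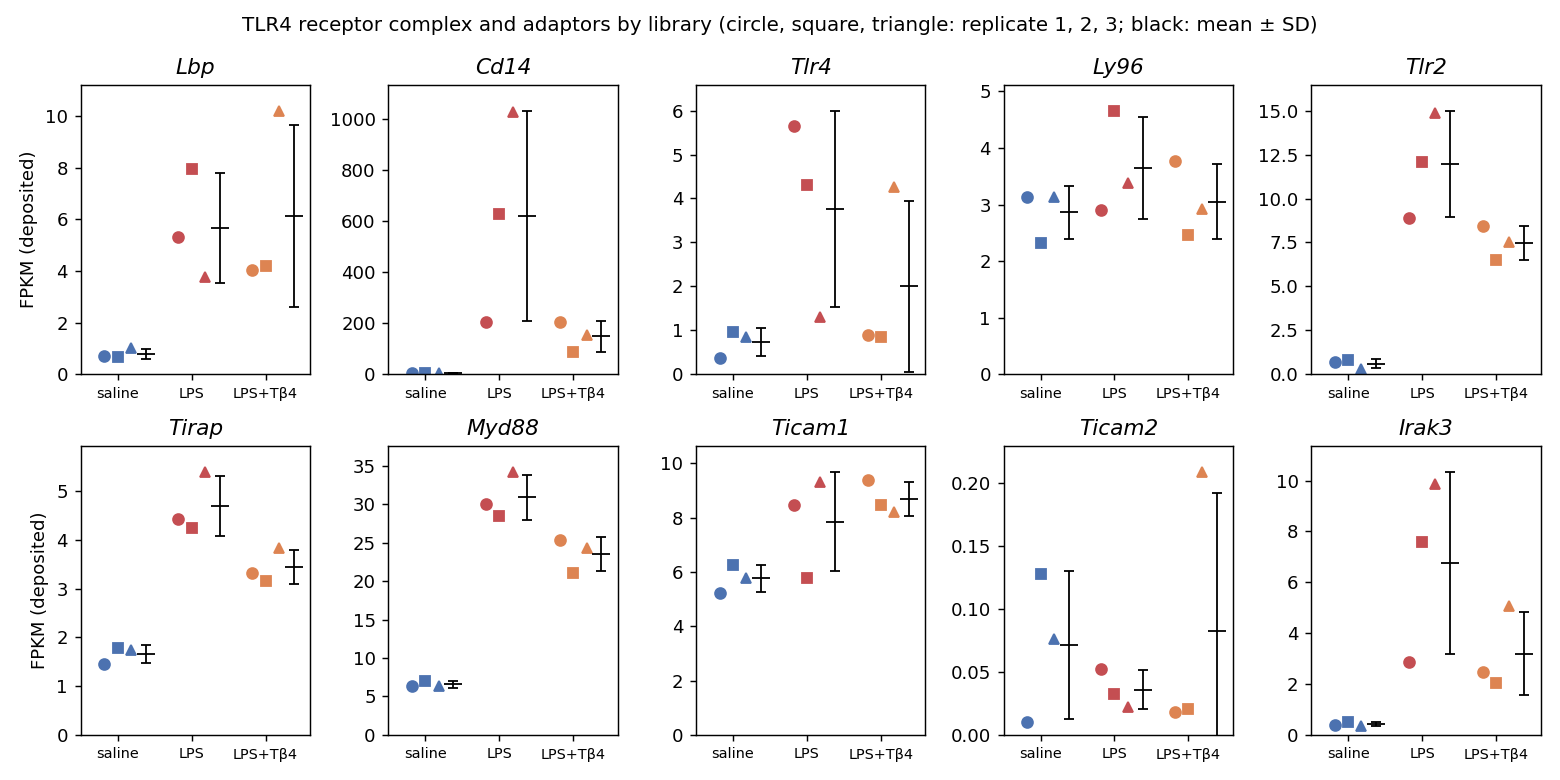
Level of each of the 10 genes in each of the 9 libraries, in FPKM on linear axes that start at 0 and differ between panels. Points are libraries, and black marks are the group mean and SD (n = 3), with the lower SD of Ticam2 in LPS+Tβ4 ending at the axis. Cd14 spans 4.26 to 1027 FPKM, Ly96 stays between 2.32 and 4.65 FPKM, and Ticam2 stays at or below 0.209 FPKM.

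Lbp (ENSMUSG00000016024, chromosome 2 at 158306493 to 158320956 in GRCm38) is best known as an acute-phase protein of the liver and is also made by epithelia. It was at 0.7, 0.655 and 1.02 FPKM in saline libraries 1 to 3, at 5.31, 7.97 and 3.76 FPKM in LPS, and at 4.03, 4.19 and 10.2 FPKM in LPS+Tβ4. Every library of either LPS-exposed group stood above every saline library, and the highest value was in LPS+Tβ4 3. Its log2 change was 2.68 ± 0.42 (SE) for LPS against saline (adjusted p = 0.0014) and 2.70 ± 0.42 for LPS+Tβ4 against saline (adjusted p = 0.0029). Between LPS+Tβ4 and LPS it was 0.02 ± 0.39, with a 95% interval from -0.87 to 0.90. Among transcripts of the liver, albumin (Alb) was highest in saline 1 at 311 CPM (counts per M) and lay between 1.06 and 36.5 CPM in the other 8 libraries, while Apoh had means of 6.66 CPM in saline, 12 CPM with LPS and 16.5 CPM with LPS+Tβ4. Of the 8 hepatocyte markers tested of 10, 0 rose and 1 (Alb) fell in LPS against saline, beside 20.9% and 22.2% of all genes. Apoh, the 1 with a positive change, did not pass (0.85, adjusted p = 0.32), and the other 7 changes were negative. The summed level of the 10, much of it Cyp2e1, which kidney also expresses, was 1069 to 1612 CPM in saline. It was 223 to 1734 CPM with LPS and 505 to 916 CPM with LPS+Tβ4, and the part of these markers in the Lbp values was not tested.

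Cd14 (ENSMUSG00000051439, chromosome 18 at 36725067 to 36726798) had the largest response and the largest spread. Its saline libraries held 4.26, 4.91 and 4.97 FPKM. With LPS they held 206, 629 and 1027 FPKM, and with LPS+Tβ4 206, 85.1 and 152 FPKM. Saline was tight and low, LPS ranged widely, and the lowest LPS library equalled the highest LPS+Tβ4 library to 3 digits in FPKM. In CPM the lowest LPS library, at 345, was below the highest LPS+Tβ4 library, at 403. On the log2 scale the change was 6.95 ± 0.73 for LPS against saline (adjusted p = 0.00026) and 4.77 ± 0.66 for LPS+Tβ4 against saline (adjusted p = 0.0019, 27.3-fold). For LPS+Tβ4 against LPS it was -2.18 ± 0.59 (95% interval -3.53 to -0.84), which missed the threshold (unadjusted p = 0.0054, adjusted p = 0.063 in edgeR). It passed in 3 of 20 alternatives and did not pass in the other 17. Those that passed include DESeq2 (-2.20, adjusted p = 0.0013) and the fit without LPS 1 (-2.64, adjusted p = 0.0059). LPS 1 is the lowest LPS library, so leaving it out raises the LPS mean by construction. Cd14 made up most of the members' RNA after LPS: it was 345, 1253 and 2124 CPM in LPS 1 to 3, where all 10 members summed to 560, 1533 and 2426 CPM.

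Cd14 is classically a gene of monocytes and macrophages and is also carried by neutrophils. The 12 macrophage and monocyte markers summed to 84.9 to 145 CPM in saline, 88.4 to 94.5 CPM with LPS, and 130 to 156 CPM with LPS+Tβ4, and the saline range held the LPS range. The sum holds changes in both directions. Of 9 tested, Cd68 (2.32 to 25.2 CPM) and Ly6c2 (1.75 to 7.5 CPM) rose with LPS. Csf1r (45.7 to 13.2 CPM) and Adgre1 (3.49 to 1.43 CPM) fell. Among all genes tested, 20.9% rose and 22.2% fell. The 10 neutrophil markers summed to 2.22 to 3.7 CPM in saline, 38.6 to 76.9 CPM with LPS, and 25.8 to 95.2 CPM with LPS+Tβ4. LPS 3, which had the highest Cd14, had the lowest neutrophil sum of the LPS libraries. Ltf alone ranged from 1.31 to 45.6 CPM between the LPS libraries, so the order of their sums rests largely on this gene. In bulk tissue, a different number of cells of a type and a different amount of RNA per cell cannot be told apart, for these markers and for every member. The part of leukocytes in the Cd14 values was not tested.

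Tlr4 (ENSMUSG00000039005, chromosome 4 at 66827584 to 66930284) encodes the signalling receptor. It was at 0.365, 0.964 and 0.842 FPKM in saline, 5.66, 4.31 and 1.31 FPKM in LPS, and 0.894, 0.855 and 4.25 FPKM in LPS+Tβ4. LPS did not overlap with saline. In LPS+Tβ4, libraries 1 and 2 lay within the saline range and library 3 lay near LPS 2. edgeR put its log2 change at 2.20 ± 0.71 for LPS against saline (95% interval 0.59 to 3.81, adjusted p = 0.034), -0.98 ± 0.68 for LPS+Tβ4 against LPS (adjusted p = 0.41), and 1.21 ± 0.69 for LPS+Tβ4 against saline (adjusted p = 0.24). Leaving out LPS 1 or LPS 2 ended the LPS call (adjusted p = 0.074 and 0.082), as did leaving out saline 1, 2 or 3 (adjusted p = 0.11, 0.068 and 0.075).

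The spread of Tlr4 within each group went with markers of the urothelium, the lining of the renal pelvis and urinary tract. The summed level of Upk1a, Upk1b, Upk2, Upk3a and Krt5 was 1.68, 64.5 and 79.9 CPM in saline 1 to 3, 63, 49.2 and 3.28 CPM with LPS, and 1.1, 1.06 and 94.1 CPM with LPS+Tβ4. Within each group, the libraries above 10 CPM of these markers had more Tlr4 than those below it. This was not particular to urothelium, since the sum of the 10 hepatocyte markers ran opposite to Tlr4 within every group. That sum was 1612, 1069 and 1136 CPM in saline 1 to 3, 223, 756 and 1734 CPM with LPS, and 611, 916 and 505 CPM with LPS+Tβ4. Whether either set of markers has a part in the Tlr4 values was not tested. The uroplakins Upk2 and Upk3a were at 0 in LPS 3 and in LPS+Tβ4 1 and 2, and Krt5 was at 0 in saline 1.

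With a term for this marker sum in the edgeR fit, the SE of the Tlr4 change fell from 0.71 to 0.22. Because Tlr4 follows the sum in these same libraries, a smaller SE is partly built in. The mix of markers also differed between groups: Upk3a reached 16.1 CPM in saline and 1.57 CPM with LPS, while Upk1b reached 20.6 and 32.2 CPM. In this fit, LPS against saline was 2.10 (adjusted p = 3e-04). LPS+Tβ4 against saline then passed, at 1.53 ± 0.22 (adjusted p = 0.0023), and LPS+Tβ4 against LPS did not, at -0.57 ± 0.22 (adjusted p = 0.15). The libraries were also fitted in separate sets on either side of 10 CPM, a cut chosen after the values were seen, so these changes are descriptions. In the 5 libraries above it, Tlr4 was 2.29 higher in LPS (libraries 1 and 2) than in saline (2 and 3), and 1.95 higher in LPS+Tβ4 3, the lone library of its group, than in saline. In the 4 libraries below it, LPS 3 was 1.78 above saline 1, each alone in its group, and LPS+Tβ4 1 and 2 were 1.06 above saline 1. LPS+Tβ4 against LPS was -0.34 in the first set and -0.71 in the second.

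**Figure D2:**
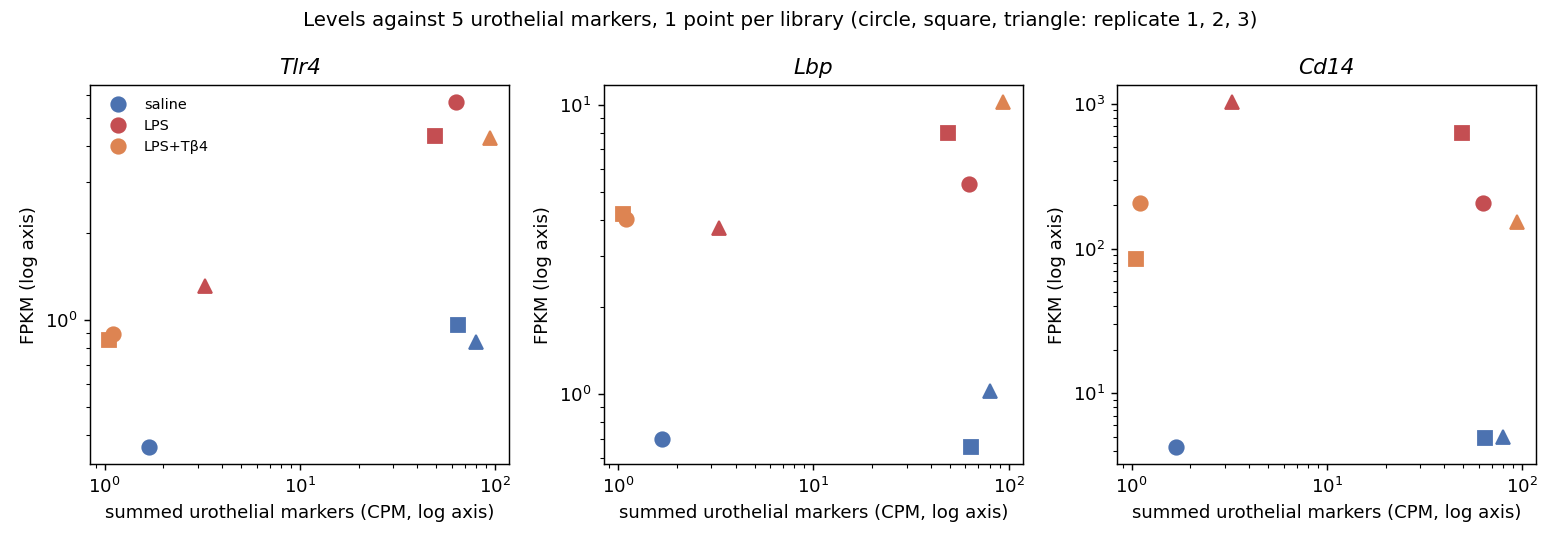
Tlr4, Lbp and Cd14 levels (FPKM) in each library against the summed level of 5 urothelial markers in CPM, on log axes and coloured by group. Within every group the libraries above 10 CPM of the markers have more Tlr4 than those below, while the Cd14 maximum is LPS 3, at 3.28 CPM of the markers.

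Ly96 (ENSMUSG00000025779, chromosome 1 at 16688051 to 16709611) encodes MD-2, the subunit that holds the lipid part of LPS. Its levels were 3.13, 2.32 and 3.13 FPKM in saline, 2.91, 4.65 and 3.38 FPKM in LPS, and 3.77, 2.46 and 2.92 FPKM in LPS+Tβ4. All 3 groups overlapped, and LPS 2 was the highest library. edgeR gave a log2 change of 0.20 ± 0.33 for LPS against saline (95% interval -0.54 to 0.94, adjusted p = 0.65) and -0.32 ± 0.33 for LPS+Tβ4 against LPS (-1.07 to 0.42, adjusted p = 0.59). The first interval leaves out a doubling with LPS (a log2 change of 1) but not smaller changes in either direction.

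Tlr2 (ENSMUSG00000027995, chromosome 3 at 83836272 to 83841767) was at 0.679, 0.803 and 0.306 FPKM in saline, 8.87, 12.1 and 14.9 FPKM in LPS, and 8.41, 6.48 and 7.52 FPKM in LPS+Tβ4. Both LPS-exposed groups were far above saline, and the highest LPS+Tβ4 library was below the lowest LPS library in FPKM, though not in CPM after TMM scaling. The log2 change was 4.21 ± 0.41 for LPS against saline (adjusted p = 0.00019) and 3.45 ± 0.40 for LPS+Tβ4 against saline (adjusted p = 0.00088, 10.9-fold). Between LPS+Tβ4 and LPS it was -0.76 ± 0.36 (95% interval -1.58 to 0.06, adjusted p = 0.23). Unlike Tlr4, Tlr2 was higher in LPS 3 than in LPS 1 and 2.

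Tirap (ENSMUSG00000032041, chromosome 9 at 35184551 to 35200291) encodes the sorting adaptor that brings MYD88 to the membrane. Its levels were 1.45, 1.79 and 1.75 FPKM in saline, 4.44, 4.25 and 5.4 FPKM in LPS, and 3.32, 3.17 and 3.84 FPKM in LPS+Tβ4. The 3 groups did not overlap, with LPS+Tβ4 between the others. Tirap changed on the log2 scale by 1.36 ± 0.17 for LPS against saline (adjusted p = 6e-04) and 0.84 ± 0.17 for LPS+Tβ4 against saline (adjusted p = 0.0092, 1.79-fold). LPS+Tβ4 against LPS was -0.52 ± 0.17 (95% interval -0.91 to -0.13), which had an unadjusted p of 0.015 and an adjusted p of 0.10 in edgeR.

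Myd88 (ENSMUSG00000032508, chromosome 9 at 119335934 to 119340041) encodes the adaptor that most Toll-like receptors and the interleukin-1 receptor share. It was at 6.33, 7.02 and 6.31 FPKM in saline, 30, 28.5 and 34.2 FPKM in LPS, and 25.3, 21 and 24.3 FPKM in LPS+Tβ4. As for Tirap, the groups did not overlap and LPS+Tβ4 lay between saline and LPS. Myd88 had the smallest p of the members in LPS against saline, with a log2 change of 2.09 ± 0.16 (adjusted p = 8.2e-05), and its LPS libraries differed by at most 1.41 times in CPM. LPS+Tβ4 against saline was 1.64 ± 0.15 (adjusted p = 0.00044, 3.11-fold), and LPS+Tβ4 against LPS was -0.45 ± 0.15 (95% interval -0.80 to -0.11, unadjusted p = 0.015, adjusted p = 0.10 in edgeR). Ranges that did not overlap were seen for 2 of the 9 members in LPS+Tβ4 against LPS on the scaled CPM, both lower, where 26.3% of all genes tested had separate ranges, 11.9% lower and 14.4% higher. In LPS against saline, 7 of the 9 had separate ranges, all higher, where 54.3% of all genes did, 25.8% higher and 28.5% lower. In LPS+Tβ4 against saline the members' number was again 7, all higher and now with Ticam1 in place of Tlr4, where 50.9% of all genes did, 24.7% higher and 26.2% lower.

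Ticam1 (ENSMUSG00000047123, chromosome 17 at 56269319 to 56276786), the TRIF adaptor of the interferon arm, was among the highest members in saline. It passed in no comparison in edgeR with all 9 libraries. It was at 5.24, 6.26 and 5.78 FPKM in saline, 8.46, 5.79 and 9.3 FPKM in LPS, and 9.38, 8.46 and 8.22 FPKM in LPS+Tβ4. LPS 2 lay within the saline range in FPKM, and in CPM below it (19.9 against 20.5 to 21.4). All 3 LPS+Tβ4 libraries lay above the saline range in both units. In edgeR the log2 change was 0.30 ± 0.20 for LPS against saline (95% interval -0.15 to 0.75, adjusted p = 0.25). It was 0.40 ± 0.20 for LPS+Tβ4 against saline (-0.05 to 0.85, adjusted p = 0.18) and 0.10 ± 0.20 for LPS+Tβ4 against LPS (adjusted p = 0.80). LPS+Tβ4 against saline did pass in limma on log2(FPKM + 1), at 0.52, and on log2(FPKM + 0.1), at 0.59 (adjusted p = 0.05 after rounding in both). In the libraries below 10 CPM of urothelial markers, LPS 3 was 0.76 above saline 1, each alone in its group.

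Ticam2 (ENSMUSG00000056130, chromosome 18 at 46557291 to 46574533), the TRAM adaptor that bridges TLR4 to TICAM1, did not pass the filter. Its counts were 4, 49 and 30 in saline, 20, 12 and 9 in LPS, and 8, 8 and 82 in LPS+Tβ4, which gave 0.0106 to 0.209 FPKM. The groups overlapped, and LPS+Tβ4 3, the library with the most urothelial markers, was highest. As for Tlr4, within each group the libraries above 10 CPM of those markers had more Ticam2 than those below it, at these low counts. Without the filter the log2 change was -1.01 ± 1.03 for LPS against saline (adjusted p = 0.54) and 1.01 ± 1.03 for LPS+Tβ4 against LPS (adjusted p = 0.65) and the counts differed widely between libraries of 1 group. The gene lies over 14299 bases of Tmed7 on the same strand, which had 78374 counts over the 9 libraries, and how reads in shared exons were assigned is not given here.

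Irak3 (ENSMUSG00000020227, chromosome 10 at 120141648 to 120202130), the brake, was at 0.388, 0.501 and 0.359 FPKM in saline. It was at 2.85, 7.6 and 9.85 FPKM in LPS and at 2.47, 2.05 and 5.08 FPKM in LPS+Tβ4. Both LPS-exposed groups were above saline and overlapped each other through LPS 1 and LPS+Tβ4 3. The log2 change was 3.92 ± 0.55 for LPS against saline (adjusted p = 0.00089), 2.70 ± 0.52 for LPS+Tβ4 against saline (adjusted p = 0.0074, 6.51-fold) and -1.22 ± 0.49 for LPS+Tβ4 against LPS (95% interval -2.35 to -0.10, unadjusted p = 0.036, adjusted p = 0.17 in edgeR). Irak3 was low where Cd14 was low among the LPS libraries, in LPS 1.

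In LPS+Tβ4 against saline, 6 of the 9 tested members rose (Lbp, Cd14, Tlr2, Tirap, Myd88 and Irak3) and 0 fell, where 24.1% of all genes tested passed, 12.3% higher and 11.8% lower. The median log2 change of the 9 was 1.64. Both comparisons with saline use the same 3 saline libraries, and both comparisons with LPS use the same 3 LPS libraries, so likeness or contrast between their changes is partly built in. The LPS+Tβ4 libraries also stood apart from the rest in 7 neural markers, at 397 to 491 CPM against 25.3 to 166 CPM in the other 6 libraries, and in 5 erythroid markers, at 182 to 263 CPM against 536 to 707 CPM. Tubule and glomerulus markers, of which none of 10 was at 0, summed to 10772 to 11873 CPM in saline, 1712 to 3874 CPM with LPS, and 2046 to 4437 CPM with LPS+Tβ4. Endothelial markers summed to 299 to 363 CPM, 156 to 322 CPM and 143 to 319 CPM in the same order. The part of these differences in the members' changes was not tested. The urothelial term, given above for Tlr4 only, does not cover these lists.

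**Figure D3:**
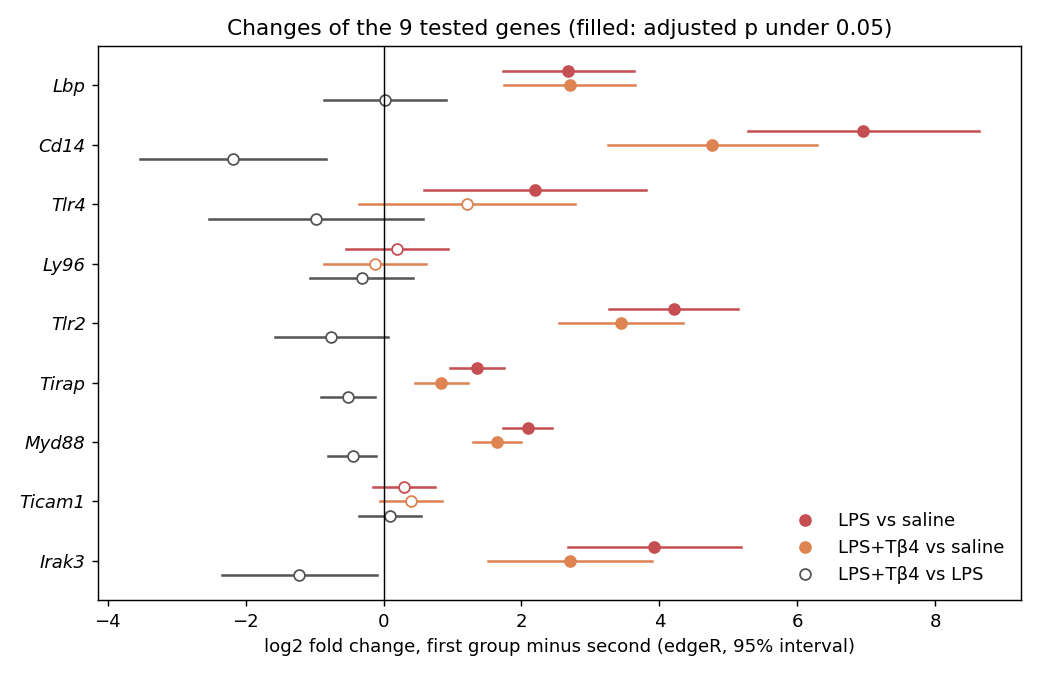
Log2 change of each tested member in the 3 comparisons, from edgeR, with 95% intervals and filled points for an adjusted p under 0.05. All 7 calls of LPS against saline are to the right of 0, and no member passes in LPS+Tβ4 against LPS.

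Several members share bases with other genes. The libraries keep strand, but the counting setting is not given, and whether reads were shared was not tested. Myd88 overlaps Acaa1a on the opposite strand by 366 bases, and Acaa1a changed by 0.04 on the log2 scale in LPS against saline (adjusted p = 0.88). Slc22a14, on the same strand, spans all 4108 bases of Myd88 and had 159 counts over the 9 libraries. Irak3 overlaps Tmbim4 on the opposite strand by 541 bases, and Tmbim4 changed by 0 and was not called. Tirap overlaps Srpr by 117 bases. It also overlaps Gm39318, which had 11 counts in all, by 5155 bases. Both are on the opposite strand. Srpr was higher in LPS by 0.67 (adjusted p = 0.039), a smaller change than that of Tirap. These neighbours had more counts over the 9 libraries than the members: Acaa1a 50076 beside 30790 for Myd88, Tmbim4 88780 beside 7424 for Irak3, and Srpr 101178 beside 9497 for Tirap.

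RefSeq promoter sequences (build GRCm38.p6, 250 bases before to 50 after a start site) were listed for 5 of the 10 members: Tlr2, Tirap, Myd88, Irak3 and Ticam1, in 7 entries. Tlr4, Cd14, Ly96, Lbp and Ticam2 were not among them. Of the 3 printed here for the members with the largest changes among those listed, Tlr2 (chr3:83841559-83841858) and Myd88 (chr9:119339969-119340268) hold matches to the motifs searched, in capitals, and Irak3 (chr10:120202081-120202380) holds none. All 3 are on the minus strand and are written 5′ to 3′.
Tlr2: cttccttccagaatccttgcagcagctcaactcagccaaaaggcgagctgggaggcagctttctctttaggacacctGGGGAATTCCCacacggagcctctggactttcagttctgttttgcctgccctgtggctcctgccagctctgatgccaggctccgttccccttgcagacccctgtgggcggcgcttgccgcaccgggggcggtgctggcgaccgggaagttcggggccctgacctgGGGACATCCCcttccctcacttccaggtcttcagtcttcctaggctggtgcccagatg
Myd88: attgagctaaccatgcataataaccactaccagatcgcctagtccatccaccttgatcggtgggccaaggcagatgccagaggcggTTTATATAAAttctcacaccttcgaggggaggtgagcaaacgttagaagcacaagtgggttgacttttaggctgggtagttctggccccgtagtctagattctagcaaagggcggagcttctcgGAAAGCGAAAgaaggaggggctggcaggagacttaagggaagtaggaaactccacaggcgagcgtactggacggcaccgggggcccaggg
Irak3: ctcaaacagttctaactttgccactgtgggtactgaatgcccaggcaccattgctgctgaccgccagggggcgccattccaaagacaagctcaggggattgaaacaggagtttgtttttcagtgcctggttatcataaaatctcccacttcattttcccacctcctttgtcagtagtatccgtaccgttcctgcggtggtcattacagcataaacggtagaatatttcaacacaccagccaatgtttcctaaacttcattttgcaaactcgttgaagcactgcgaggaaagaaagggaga
The capitals in Tlr2 are NF-kB motif matches, 2 overlapping ones from -173 to -163 and 1 from -8 to 2 around the start site. In Myd88, GAAAGCGAAA from -40 to -31 matches the interferon-stimulated response element, written GAAANNGAAA. The other capitals there are the TATA box letters TATAAA on both strands, from -164 to -155. The AP-1 motif TGANTCA was searched as well, and both strands were read. Of all 32851 promoters of this length, 8.46% hold the NF-kB motif, 3.44% the interferon motif, 7.81% the AP-1 motif and 13.6% the TATA box letters. The entries for Tirap, Irak3 and Ticam1 hold none of the 4, although Tirap and Irak3 rose and Ticam1 did not pass. A match of letters is a description of the sequence only.

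Because FPKM is per length, levels can be compared between members. In saline the order was Myd88 (6.55 ± 0.403 FPKM, mean ± SD, n = 3), Ticam1 (5.76 ± 0.508), Cd14 (4.71 ± 0.393), Ly96 (2.86 ± 0.469), Tirap (1.66 ± 0.186), Lbp (0.791 ± 0.198), Tlr4 (0.723 ± 0.317), Tlr2 (0.596 ± 0.259), Irak3 (0.416 ± 0.0748) and Ticam2 (0.0718 ± 0.059). Neighbours from Myd88 down to Lbp did not overlap, while Lbp with Tlr4, Tlr4 with Tlr2, and Tlr2 with Irak3 did. With LPS, Cd14 came first (620 ± 411 FPKM), then Myd88 (30.9 ± 2.95), and the 2 did not overlap with each other or with the rest. The next 7, from Tlr2 (12 ± 3.03 FPKM) through Ticam1 (7.85 ± 1.83), Irak3 (6.76 ± 3.57), Lbp (5.68 ± 2.13), Tirap (4.7 ± 0.618) and Tlr4 (3.76 ± 2.23) to Ly96 (3.65 ± 0.899), overlapped with their neighbours. With LPS+Tβ4, Cd14 (148 ± 60.7 FPKM) and Myd88 (23.5 ± 2.23) led again. They were followed by Ticam1 (8.69 ± 0.613 FPKM), Tlr2 (7.47 ± 0.962), Lbp (6.14 ± 3.51), Tirap (3.44 ± 0.353), Irak3 (3.2 ± 1.64), Ly96 (3.05 ± 0.664) and Tlr4 (2 ± 1.95), of which Lbp and Tirap alone did not overlap as neighbours. Ticam2 was last in every group.

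The balance between partners within a library was read as a ratio of FPKM values. Myd88 over Ticam1, the adaptors of the 2 arms, was 1.21, 1.12 and 1.09 in saline, 3.55, 4.92 and 3.68 in LPS, and 2.69, 2.48 and 2.95 in LPS+Tβ4. The 3 groups did not overlap, and LPS+Tβ4 lay between the others. Irak3 over Myd88 was 0.0613, 0.0713 and 0.0569 in saline, 0.095, 0.266 and 0.288 in LPS, and 0.098, 0.0976 and 0.209 in LPS+Tβ4, so each LPS-exposed library was above saline and the LPS-exposed groups overlapped.

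Ratios with Tlr4 in them varied most within a group. Cd14 over Tlr4 was 11.7, 5.09 and 5.91 in saline, 36.3, 146 and 785 in LPS, and 231, 99.5 and 35.8 in LPS+Tβ4. Ly96 over Tlr4, the balance of the receptor's subunits, was 8.59, 2.41 and 3.72 in saline, 0.515, 1.08 and 2.58 in LPS, and 4.22, 2.88 and 0.686 in LPS+Tβ4. Ly96 was thus above Tlr4 in every library except LPS 1 and LPS+Tβ4 3. Both are above 10 CPM of urothelial markers, as are saline 2, saline 3 and LPS 2, where Ly96 was above Tlr4. Tlr2 over Tlr4 ran from 0.364 to 1.86 in saline, 1.57 to 11.4 in LPS and 1.77 to 9.41 in LPS+Tβ4. No test was made of these ratios.

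**Figure D4:**
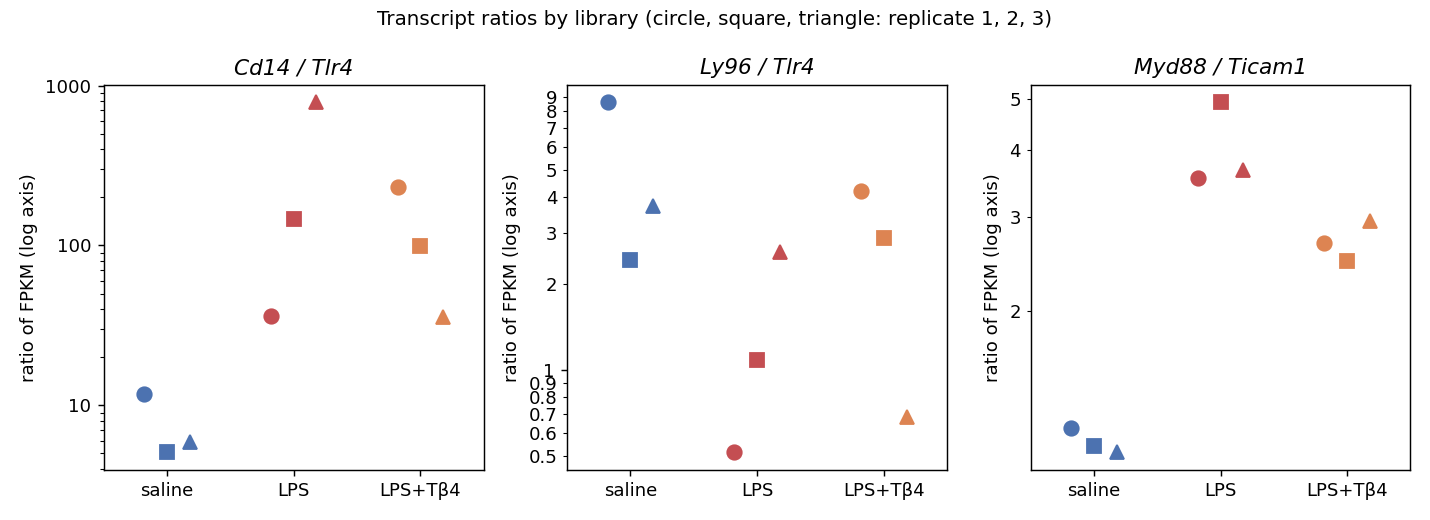
Ratios of FPKM between 3 pairs of members (Cd14 and Tlr4, Ly96 and Tlr4, Myd88 and Ticam1) in each library, on log axes, by group. Myd88 over Ticam1 separates the 3 groups, while the ratios with Tlr4 spread widely within LPS and LPS+Tβ4.

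The genes most like each member over the 9 libraries were ranked by Pearson's r of log2(CPM + 1) among 11333 genes with a mean of at least 1 FPKM. The libraries fall into 3 groups, so a high r largely restates the group differences, and the values are descriptions. Tlr4 went with Dapp1 (0.991), Cdh1 (0.988) and Klf5 (0.987), of which Cdh1 encodes the epithelial adhesion protein E-cadherin and Klf5 an epithelial transcription factor. Cd14 went with Klf6, Rnd1 and Gbp5 (each 0.995), and Lbp with the acute-phase gene Saa3 (0.977), Ifitm2 (0.972) and Fxyd5 (0.972). Tlr2 went with the oncostatin M receptor Osmr (0.996), the zinc transporter Slc39a14 (0.993) and Myd88 (0.991). Myd88 went with the interferon-inducible Gbp2 (0.996), Fyb2 (0.995) and Anxa7 (0.994), and Tirap with Zyx (0.996), Dnajc5 (0.994) and Baz1a (0.994). Irak3 went with the neutrophil chemokine Cxcl2 (0.986), the TNF receptor Tnfrsf1b (0.983) and Slc10a6 (0.983). For Ly96, which passed in no comparison, the highest r was 0.906, with Atp6v1g1.

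Other genes of the pathway were taken from 4 lists, which were chosen with earlier results of these data known. In LPS against saline, 10 of the 23 tested kinases, ligases and adaptors downstream rose and 1 fell, with a median log2 change of 0.51. Of all genes tested, 20.9% rose and 22.2% fell in that comparison, 43.1% together, so the list's share of genes called is near that of all genes. Those with the smallest adjusted p were the IRF3 kinase Tbk1 (1.30, adjusted p = 0.00078), the IKK regulatory subunit Ikbkg (0.77, adjusted p = 0.0019), the TBK1-related kinase Ikbke (1.85, adjusted p = 0.0023) and Tab3 (0.67, adjusted p = 0.0053). Tbk1 was also the 1 gene of the 23 that passed in LPS+Tβ4 against LPS, where 6.83% of all genes did, 4.5% higher and 2.33% lower. The list's share is thus no higher than that of all genes. Tbk1 was lower by a log2 change of -0.85 (adjusted p = 0.032), from a mean of 82 to 45.6 CPM, against 33.3 CPM in saline. This call was lost in 10 of 20 alternatives.

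Of 13 tested inhibitors of the pathway (18 listed), 8 rose and 1 fell with LPS, beside 20.9% and 22.2% of all genes, with a median of 1.19 against 0.02. The list was chosen with earlier results of these data known, so this contrast with all genes is a description only. Nlrc5, an inducible NOD-like receptor, rose by 3.78 (adjusted p = 2.7e-05), the ubiquitin-editing enzyme Tnfaip3 (A20) by 3.59 (adjusted p = 1e-04) and the RNase Zc3h12a by 4.01 (adjusted p = 0.0016). Sigirr, a decoy-like receptor of the interleukin-1 family, went the other way, at -1.56 (adjusted p = 0.00062). Nlrc5 and Sigirr were the 2 that passed in LPS+Tβ4 against LPS, where 6.83% of all genes did. Nlrc5 was lower (-1.10, adjusted p = 0.018, mean 81.9 and 38.3 CPM with LPS and LPS+Tβ4) and Sigirr higher (0.84, adjusted p = 0.045, 20.7 and 37 CPM). The Nlrc5 call was lost in 6 of 20 alternatives and the Sigirr call in 15.

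Among 4 tested receptors of 10 other Toll-like receptors listed, 1 rose and 1 fell with LPS, too few to set beside the shares of all genes. The double-stranded RNA receptor Tlr3 rose from 11.6 to 45.9 CPM (1.99, adjusted p = 6e-04) and Tlr12, a receptor for profilin of protozoa, fell from 21.6 to 1.81 CPM (-3.57, adjusted p = 0.0011). Tlr1, the partner of TLR2, had mean levels of 1.23 CPM with saline, 1.15 CPM with LPS and 3.36 CPM with LPS+Tβ4. Its mean was 0.295 FPKM in saline, 0.302 FPKM with LPS and 0.942 FPKM with LPS+Tβ4. Tlr1 thus met the filter of 0.5 FPKM only through LPS+Tβ4, the group where it was high. It passed in LPS+Tβ4 against LPS (1.55, adjusted p = 0.041), and not in LPS against saline (-0.10, adjusted p = 0.84). The LPS+Tβ4 against LPS call was lost in 15 of 20 alternatives, among them edgeR without the filter (adjusted p = 0.082). Tlr13, a sensor of bacterial ribosomal RNA, was 1.15 higher with LPS (adjusted p = 0.056), short of the threshold. Of 15 tested genes for receptor chaperones, uptake and LPS handling (16 listed), 4 rose and 1 fell with LPS, a smaller share than the 43.1% of all genes called, with a median of -0.12. Casp4, the mouse sensor of LPS in the cytosol, rose by 3.89 (adjusted p = 0.00042) and the integrin Itgam by 3.38 (adjusted p = 0.00059). The dynamin Dnm2 rose by 0.82 (adjusted p = 0.0052), and the alkaline phosphatase Alpl, which can detoxify LPS, changed by -2.17 (adjusted p = 0.0025). In LPS+Tβ4 against LPS, 0 of these 15 passed in edgeR. At an unadjusted p below 0.05, 6 were higher and 0 lower, where 13.5% and 11.5% of all genes were. DESeq2 called 2 higher and 0 lower, where it called 9.12% of all genes higher and 7.14% lower. Limma on log2(FPKM + 1) called 0, where it called 5.05% of all genes higher and 1.67% lower. Itgam is also a gene of neutrophils and macrophages, whose marker sums are given above.

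**Figure D5:**
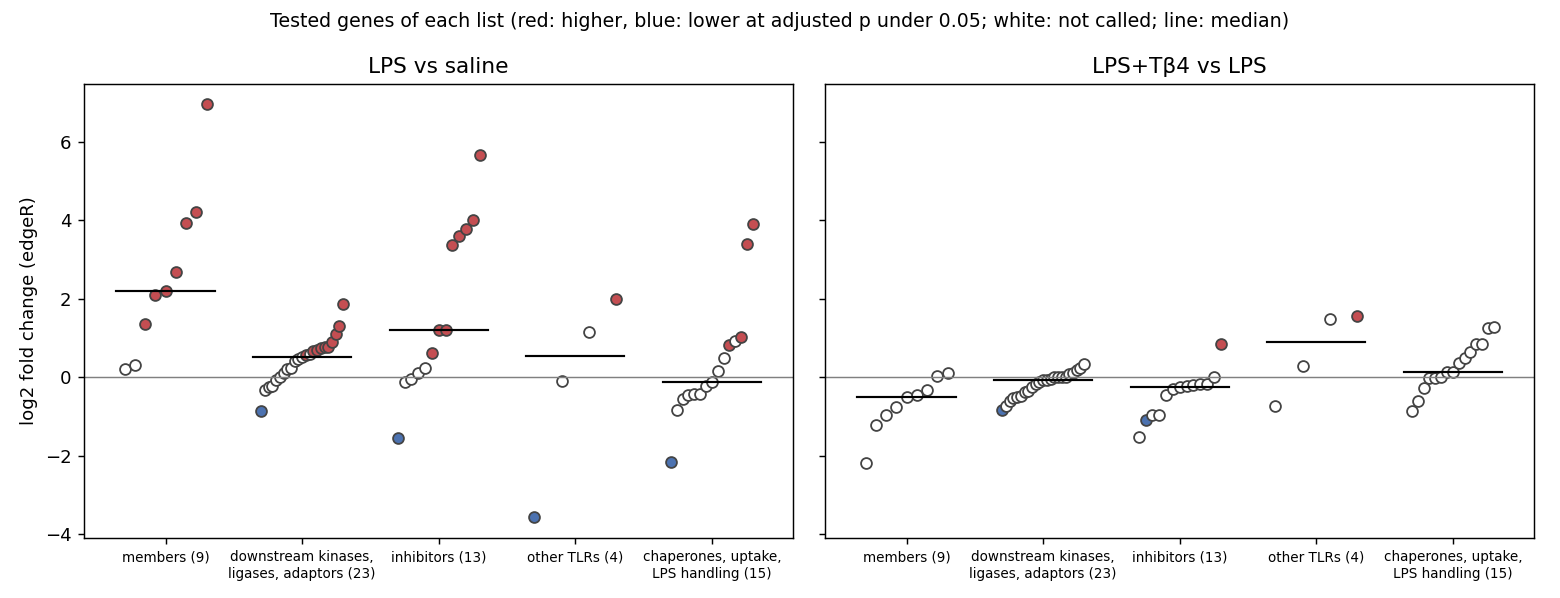
Log2 change of each tested gene of the 4 pathway lists and of the members, in LPS against saline and in LPS+Tβ4 against LPS, from edgeR, coloured red for higher and blue for lower calls, white for no call, with lines at the medians. The members and the inhibitors have the highest medians with LPS, at 2.20 and 1.19, and few genes pass in LPS+Tβ4 against LPS. Members and lists were chosen with earlier results of these data known.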

How the data were processed

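Kidney mRNA of 9 mice, 3 a group, was read as paired-end libraries that keep strand. The authors deposited, for 34310 Ensembl genes, raw counts and FPKM values in each of the 9 libraries. The submitters' processing notes name cutadapt 1.9, HISAT2 2.2.1, StringTie 2.1.6, DESeq2, edgeR and the build GRCm38; for the counting program, its strand setting and the annotation, the answer is not given in the sources used here. Totals were 53 to 62 M counts, with no row that names no gene.

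The test was edgeR's two-sided quasi-likelihood test (version 4.0.16, R 4.3.3) on the counts, with TMM scaling, group means as the only terms and all 9 libraries together. It ran over the 15015 genes whose FPKM averaged 0.5 or more, with Benjamini-Hochberg adjustment over all of them and a threshold of 0.05. A gene can meet this filter through a group where it is high, as Tlr1 did. The SE is the change divided by the square root of F. The chain was tested on simulated data. Alternatives used DESeq2 1.42.0 and limma 3.58.1 on log2(FPKM + 1) and log2(FPKM + 0.1), other filters and scalings, a replicate block, a urothelial term, and fewer libraries. The members and lists were chosen with earlier results of these data known. Named beside the members were up to 4 genes a list with the smallest adjusted p in LPS against saline, those passing in LPS+Tβ4 against LPS, and the 3 most correlated genes of members the results turn on. The fits on urothelial-rich or urothelial-poor libraries were added after the data were seen. Figures were drawn with matplotlib 3.10.9.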

Additional observations from a re-analysis of the deposited data

How the results depend on the processing

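Over 20 alternatives, the number of members called ranged from 6 to 8 in LPS against saline (7 as reported) and from 5 to 7 in LPS+Tβ4 against saline (6 as reported), and no change of a called member turned sign. In LPS+Tβ4 against LPS, 0 members passed as reported. DESeq2 called 2 lower, where it called 1072 of all 15015 genes lower and 1370 higher. Without LPS replicate 1, 4 were lower (Cd14, Myd88, Tirap, Irak3), where 1165 of all 15015 genes were lower and 1507 higher. The fit on the 4 libraries below 10 CPM of urothelial markers had 1 residual degree of freedom. In it LPS 3 and saline 1 were alone in their groups, which are assumed to vary like the others. There Cd14, Tlr2, Tirap and Irak3 changed by -2.94, -1.13, -0.87 and -2.25. Leaving out 1 library at a time gave 0 to 4 members called. The Tlr4 call in LPS against saline was lost in 7 of 20, among them limma on log2(FPKM + 1) (1.35, adjusted p = 0.051). Tirap and Irak3 lost theirs in LPS+Tβ4 against saline with only urothelial-rich libraries (adjusted p = 0.12 and 0.068). The cause of these differences was not tested. The replicate block took the members called in LPS against saline from 7 to 6 (Tlr4, 2.38, adjusted p = 0.061) and left the other counts at 0 and 6. Same-numbered libraries correlated between -0.66 and 0.33 in their deviations from group means, and not every library correlated best with its own number, so the numbers were not used as pairs. Over all genes, LPS+Tβ4 against LPS had 1025 calls as reported, 647 without a filter, 2442 in DESeq2, 3 with only the 6 libraries compared, 5 with the replicate block, 0 and 2404 in urothelial-rich and urothelial-poor libraries, and 68 to 2672 with 1 library left out. LPS against saline fell from 6473 to 3730 calls, and LPS+Tβ4 against saline from 3617 to 871, in the urothelial-rich libraries alone. The number of list genes called in LPS+Tβ4 against LPS also varied: 0 to 6 downstream genes, 0 to 3 inhibitors and 0 to 3 other receptors passed over the alternatives.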
